A study of Sus scrofa with 15 samples.

Results

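Antioxidant and redox enzymes remove superoxide and peroxides from a cell and repair oxidised thiols. A list of 51 genes of these enzymes was followed through pig oocyte maturation, grouped by system (superoxide dismutases and catalase, peroxiredoxins, glutathione enzymes, thioredoxin enzymes, methionine sulfoxide reductases and the NRF2 stress response). The members were the rows of the gene table whose symbol is on the list, and 47 of the 51 had an Ensembl gene ID in the gene name table, out of 22516 genes in all. *GLRX*, *GLRX2*, *GSTP1* and *TXN* had no ID there and were not analysed here. Of the 47, 44 passed the filter on low counts and were tested, among 13219 genes tested.

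The oocytes came from sow ovaries collected at an abattoir, with no genetic modification. GV oocytes (n = 5 libraries) were taken from fresh cumulus oocyte complexes, MII oocytes (n = 5) had a first polar body after in vitro maturation for 44 h, and ‘damaged’ oocytes (n = 5) lacked a polar body after the same culture. The medium of the MII and ‘damaged’ oocytes held cysteamine, a thiol that helps cells to take up cysteine, as well as gonadotrophins, EGF, insulin and follicular fluid. Culture and stage therefore cannot be told apart. Each library pooled 15 denuded oocytes of 1 of 5 collections, so single oocytes were not measured. In such pools, fewer oocytes with a transcript and less transcript per oocyte cannot be told apart.

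A growing oocyte stores mRNA, stops transcription before maturation and then uses or degrades this store. Its mitochondria and the surrounding culture medium are sources of superoxide, which superoxide dismutases turn into hydrogen peroxide. Catalase, peroxiredoxins and glutathione peroxidases each remove hydrogen peroxide, and thioredoxin, glutathione and NADPH keep the last 2 families reduced. Glutathione made during maturation is known to serve the male pronucleus after fertilisation in pigs.

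The name of a library in the gene table disagreed with its transcript file for 7 of 15 columns, and only the labels of the transcript files were used. By these labels, each of the 15 libraries was nearest to a library of its own stage (GV, or MII and ‘damaged’ together). Nothing in the files tests the division between MII and ‘damaged’, which for replicates 1 and 2 of both groups rests on these labels alone. Totals ranged from 6.4 M counts in GV replicate 3 to 23.6 M in an MII library. GV replicate 3, the library with the lowest total, did not enter the tests or the values below. Of 16 oocyte markers, 15 were above 1 CPM in each group. Of 22 cumulus and granulosa cell markers, 13 had a count, and their summed level was 28.7 to 31.5 CPM in GV, 22.9 to 32.8 in MII and 25.8 to 33.6 in ‘damaged’ libraries. This sum held markers that differed between stages in both directions. *FST* was at 7.23 CPM in GV, 20.1 in MII and 22.1 in ‘damaged’ oocytes, *GREM1* at 15.5, 5.10 and 5.28, and *HSD17B1* at 3.65, 0.0975 and 0.015, while *FSHR*, *INHA* and *AMH* were under 1 CPM on average in each group. The endothelial marker *PECAM1* was higher after maturation (4.70 CPM in GV, 16.8 in MII and 15.0 in ‘damaged’ oocytes), with *CDH5* at or near 0, and the part of either list in the results was not tested.

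Between GV and MII oocytes the antioxidant genes split rather than moving together. Levels are given as CPM, counts brought to a common library total and scaled with TMM factors, which set the bulk of genes level between libraries. DEGs (differentially expressed genes) were past both a false discovery rate (FDR) of 0.01 in limma-voom and a log2 fold change of 2 in either direction. In MII against GV, 3 of 44 members were DEGs with higher levels (*CAT*, *GPX1* and *MGST3*), a share of 6.82%, and 9 were DEGs with lower levels (*PRDX1*, *PRDX3*, *GPX4*, *GPX6*, *GLRX3*, *GSTK1*, *TXN2*, *NXN* and *SESN2*), a share of 20.5%. Over all genes tested these shares were 4.51% higher and 17.1% lower, so the split of the members was near that of other genes. At an FDR under 0.01 with no limit on the fold change, 12 members rose (27.3%), 16 fell (36.4%) and 16 did not pass. Of all genes, 28.2% rose and 34.2% fell. The GV and MII libraries did not overlap for 27 members (61.4%), beside 60% of all genes tested.

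The median log2 fold change of the 44 members was -0.02, beside -0.17 for all genes. Without TMM factors, on plain library sizes, these medians were -0.93 and -1.09, and each member moved down by 0.89 to 0.94. With this scaling all 16 members that fell still fell, 7 of the 12 that rose still rose (*CAT*, *PRDX6*, *GPX1*, *GPX8*, *MGST3*, *NFE2L2* and *SESN1*), and *SOD1* and *GSR* turned to lower levels. In all, 7 members then rose and 26 fell, no member was a DEG with a higher level, and 18 were DEGs with a lower level. The shares of all genes on library sizes are not given here, and the median of all genes was lower on that scale as well. These counts are therefore not a result about the members.

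In ‘damaged’ against GV oocytes, 2 members (4.55%) were DEGs with higher levels (*CAT* and *GPX1*) and 12 (27.3%) with lower levels. Over all genes these shares were 4.09% and 16.4%. At an FDR under 0.01, 12 members rose (27.3%) and 18 fell (40.9%), against 28% and 33.4% of all genes. The larger share of falls among the members was not tested. GV and ‘damaged’ libraries did not overlap for 30 members (68.2%), beside 58.5% of all genes. On library sizes 6 of the 12 rises still passed (*CAT*, *GPX1*, *GPX8*, *MGST3*, *NFE2L2* and *SESN1*), and all 18 falls. The comparison uses the same GV libraries as MII against GV, so its values stand beside those of MII and are not a repeat of them.

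**Figure D1:**
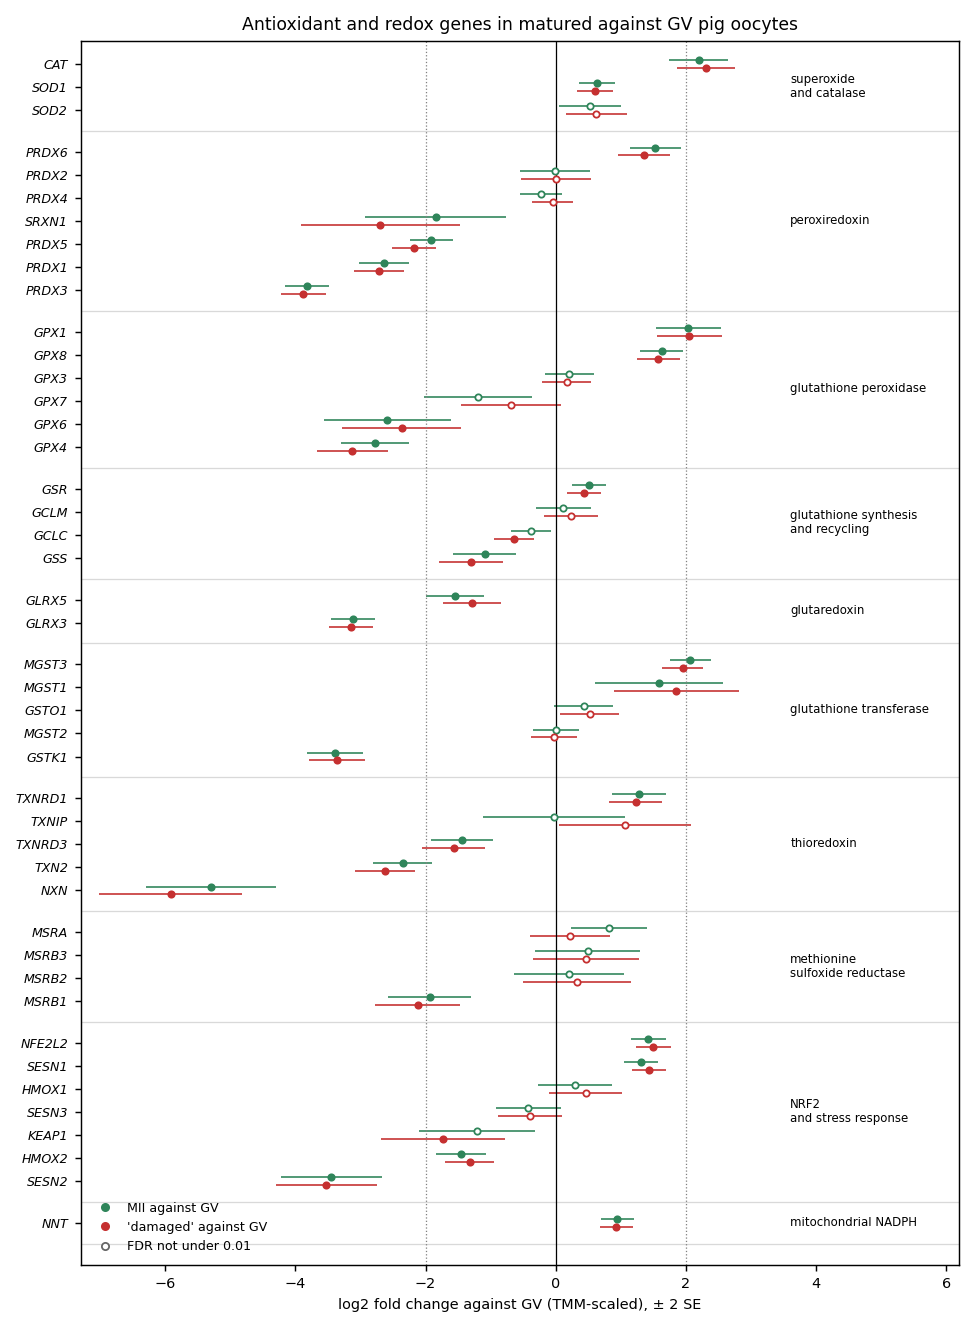
Log2 fold change (x axis, TMM-scaled) of the 44 tested genes, grouped by enzyme system, for MII (green) and ‘damaged’ (red) against GV, with bars of 2 SE and open points where the FDR was not under 0.01. *CAT* and *GPX1*, and *MGST3* for MII, lie beyond 2 on the right and *NXN* lies farthest left at -5.30 and -5.92. On library sizes each point lies 0.84 to 0.94 further left, which turns *SOD1* and *GSR* to lower levels.

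Catalase, the peroxisomal enzyme that splits hydrogen peroxide without a thiol partner, was the member with the largest rise. *CAT* (ENSSSCG00000013302, chr2:26493664-26533881 in Sscrofa11.1) had 127, 64, 108 and 76.8 CPM in GV libraries 1, 2, 4 and 5. The MII libraries had 352, 339, 470.5, 585 and 369 CPM and the ‘damaged’ libraries 344, 524, 663, 434 and 351 CPM. Every matured library was above every GV library. The log2 fold change (± SE) was 2.19 ± 0.22 (FDR 4.2e-08) in MII and 2.31 ± 0.22 (FDR 2.1e-08) in ‘damaged’ oocytes, and 1.28 and 1.43 on library sizes.

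*SOD1*, the cytosolic copper and zinc superoxide dismutase, had 491, 386, 422 and 326 CPM in GV, 608, 628, 564, 621 and 699 in MII and 673, 637, 718, 543 and 500.4 in ‘damaged’ libraries. The GV libraries lay below both matured groups on this scale, with log2 fold changes of 0.63 ± 0.14 (FDR 0.000405) and 0.60 ± 0.14 (FDR 0.000682). This rise depended on the scaling, since on library sizes the values were -0.28 and -0.27. *SOD2*, the mitochondrial manganese enzyme, ranged from 20.9 to 42.1 CPM in GV and 31.1 to 68.6 in MII, and its log2 fold change of 0.52 ± 0.24 (FDR 0.054) did not pass. *SOD3*, the extracellular enzyme, had at most 1.01 counts in a GV library and 0 in every MII and ‘damaged’ library, where 3 counts allow up to 0.284 CPM in MII and 0.228 CPM in ‘damaged’ libraries.

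The peroxiredoxins, which reduce peroxides with a cysteine, went in different directions. *PRDX1*, a cytosolic member reduced by thioredoxin (ENSSSCG00000003914, chr6:165847390-165859918), had 536, 416, 372 and 277 CPM in GV, 74.7, 61.2, 50.3, 61.9 and 67.1 in MII and 74.7, 62.2, 38.8, 67.5 and 59.96 in ‘damaged’ libraries. The lowest GV library was thus over 3 times above the highest matured library. Its log2 fold change was -2.64 ± 0.19 (FDR 3.8e-10) in MII and -2.72 ± 0.19 (FDR 2.7e-10) in ‘damaged’ oocytes.

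*PRDX3*, the mitochondrial peroxiredoxin (ENSSSCG00000010682, chr14:129079050-129090790), had the largest fall of the family. Its GV libraries had 119.6, 87.4, 102 and 85.1 CPM, the MII libraries 6.54, 5.62, 7.87, 6.76 and 7.74 and the ‘damaged’ libraries 5.93, 6.23, 7.8, 5.29 and 8.16. The spread within each group was small beside the gap between the stages, and the log2 fold changes were -3.82 ± 0.17 (FDR 1.6e-12) and -3.88 ± 0.17 (FDR 1.5e-12).

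*PRDX5*, a peroxiredoxin of mitochondria, peroxisomes and cytosol (ENSSSCG00000013030, chr2:7798672-7801955), had 24.7, 21, 22.1 and 24.6 CPM in GV, 6.88, 5.69, 6.48, 5.17 and 6.63 in MII and 5.36, 4.78, 3.71, 6.4 and 5.48 in ‘damaged’ libraries. Here too no matured library reached a GV library. The fall was -1.91 ± 0.17 (FDR 4.4e-09) in MII, short of the DEG threshold, and -2.18 ± 0.17 (FDR 1.0e-09) in ‘damaged’ oocytes, past it. The difference between MII and ‘damaged’ oocytes itself was 0.27 ± 0.18 (FDR 1.00), so *PRDX5* was not shown to differ between them. *SRXN1*, sulfiredoxin, which reactivates overoxidised peroxiredoxins, was under 1 CPM in each of the 4 GV libraries and had log2 fold changes of -1.85 ± 0.54 (FDR 0.00501) and -2.70 ± 0.61 (FDR 0.000593).

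The other members of the family did not fall with TMM factors. *PRDX2*, the main peroxiredoxin of red blood cells and also cytosolic, had 1182, 711, 989 and 735 CPM in GV, 1014, 899, 547, 934 and 1102 in MII and 1368, 881, 421, 1125 and 962 in ‘damaged’ libraries. The 3 groups overlapped, with log2 fold changes of -0.01 ± 0.27 (FDR 0.965) and 0.00 ± 0.27, although on library sizes it fell (-0.93 and -0.88). Of 5 blood and immune cell markers, 3 had a count, and their summed level was at most 2.80 CPM in a library. The hemoglobin gene *HBB* was at 0.0128 CPM in GV, 0.0565 in MII and 0.115 in ‘damaged’ oocytes on average. A part of blood cells in the level of *PRDX2* was not tested. *PRDX4*, the peroxiredoxin of the endoplasmic reticulum, had 26.7, 24.8, 28.8 and 22.2 CPM in GV, 25.9, 19.5, 18.5, 23.2 and 22.3 in MII and 32.3, 26.8, 22.3, 20.9 and 23 in ‘damaged’ libraries. It overlapped between stages as well, with log2 fold changes of -0.23 and -0.05, and on library sizes it fell (-1.14 and -0.92).

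*PRDX6*, which has a single catalytic cysteine, uses glutathione and also acts on phospholipids (ENSSSCG00000022742, chr9:115857629-115868898), was the only peroxiredoxin that rose. It had 7.55, 4.21, 4.22 and 5.98 CPM in GV, 13.6, 16, 16.5, 14.8 and 16.2 in MII and 12, 10.9, 16.9, 15.6 and 13.6 in ‘damaged’ libraries, with no overlap between GV and either matured group. The log2 fold changes were 1.53 ± 0.20 (FDR 9.6e-07) and 1.36 ± 0.20 (FDR 4.7e-06), and 0.61 and 0.48 on library sizes, where the rise in ‘damaged’ oocytes no longer passed (FDR 0.0368).

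**Figure D2:**
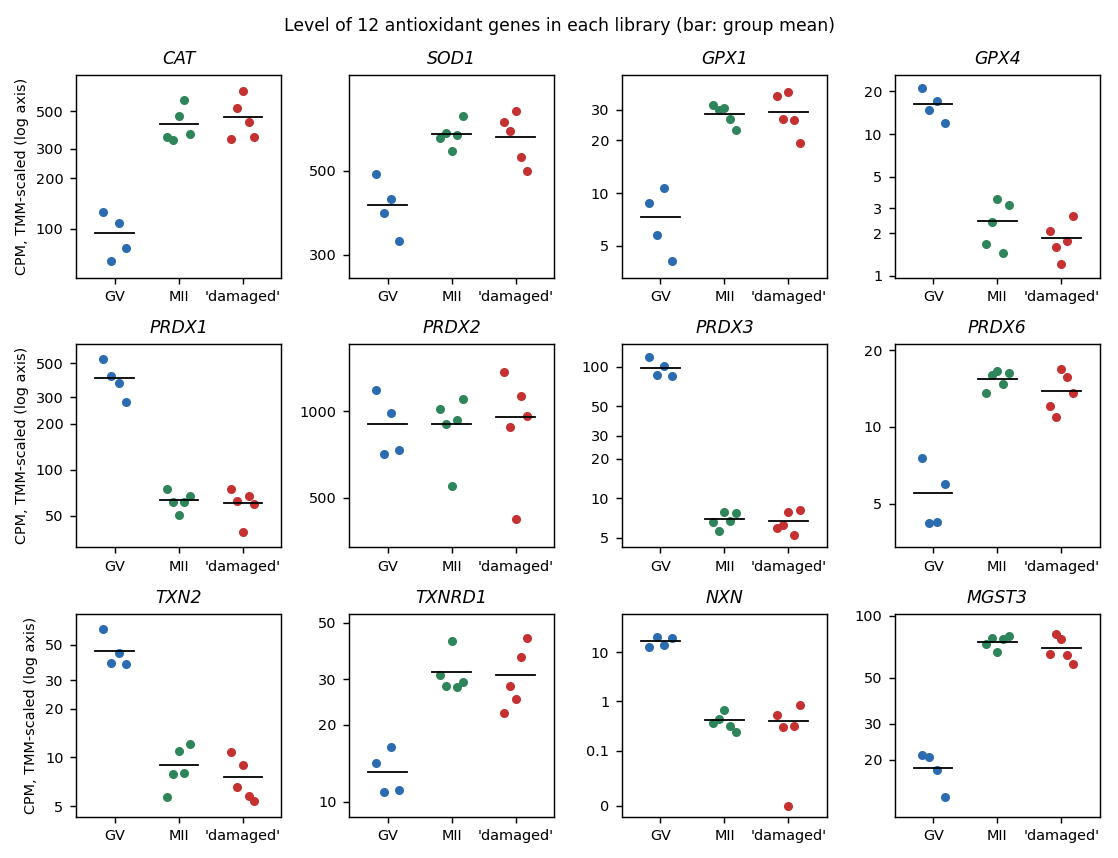
CPM with TMM factors (y axis, logarithmic, with a linear part near 0 for *NXN*) of 12 genes in the 4 GV, 5 MII and 5 ‘damaged’ libraries, each point a library and each bar a group mean. *PRDX1*, *PRDX3*, *GPX4*, *TXN2* and *NXN* show GV libraries above all matured libraries, *CAT*, *GPX1*, *PRDX6*, *TXNRD1* and *MGST3* show them below, and *PRDX2* overlaps. On library sizes *SOD1* turns to lower levels and *PRDX2* falls.

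The make-up of the family shifted with it. By TPM (a level per transcript length, as a share of each library), *PRDX2* held 65.1 to 73.4% of the summed peroxiredoxin level in GV, 90.2 to 93.8% in MII and 89.5 to 94.8% in ‘damaged’ libraries. *PRDX1* held 20.6 to 28.7% in GV and 4.3 to 6.2% in MII libraries. *PRDX3* went from 3.7 to 4.3% in GV to at most 0.7% in MII libraries. *PRDX6*, in spite of its rise, held at most 1.6% in an MII and 2.1% in a ‘damaged’ library. These shares are within a library and so do not depend on the scaling between libraries.

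Glutathione peroxidases use glutathione to reduce peroxides. *GPX1*, the common selenoenzyme of cytosol and mitochondria (ENSSSCG00000060656, chr13:31916269-31917337), had 8.75, 5.74, 10.7 and 4.11 CPM in GV, 31.8, 29.9, 30.7, 26.4 and 23 in MII and 35.8, 26.5, 38, 26.1 and 19.3 in ‘damaged’ libraries. All matured libraries were above all GV libraries. The log2 fold changes of 2.04 ± 0.25 (FDR 5.5e-07) and 2.05 ± 0.25 (FDR 5.0e-07) were just over the DEG threshold, and *GPX1* stayed over it in 11 and 10 of the 14 fits that left out 1 library. Without GV replicate 5 the values were 1.78 and 1.79, and on library sizes 1.11 and 1.17.

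*GPX8*, a peroxidase of the endoplasmic reticulum without selenocysteine (ENSSSCG00000021973, chr16:34336154-34341861), had 32.1, 23.7, 23.7 and 24.1 CPM in GV, 71.7, 71.4, 71.6, 79.1 and 106 in MII and 78.9, 80.4, 72.5, 94.6 and 59.5 in ‘damaged’ libraries. It rose without overlap by 1.63 ± 0.17 (FDR 4.0e-08) and 1.57 ± 0.17 (FDR 6.6e-08). MII replicate 5 was the highest library of its group.

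*GPX4*, the enzyme that reduces lipid peroxides in membranes (ENSSSCG00000024052, chr2:77321568-77323931), fell. It had 21.1, 14.8, 17.1 and 12 CPM in GV, 1.68, 2.39, 3.5, 1.45 and 3.15 in MII and 2.06, 1.58, 1.21, 1.76 and 2.65 in ‘damaged’ libraries. The GV libraries stood clear of all others, and the log2 fold changes were -2.77 ± 0.26 (FDR 1.4e-08) and -3.13 ± 0.27 (FDR 4.9e-09). *GPX6* (ENSSSCG00000001213, chr7:22256013-22267992), a member best known from olfactory tissue, was low throughout, with 2.45, 1.66, 1.49 and 1.62 CPM in GV, 0, 0.456, 0.229, 0.578 and 0.37 in MII and 0.68, 0.301, 0.24, 0.191 and 0.332 in ‘damaged’ libraries. An MII library had no count of it, and it fell, with log2 fold changes of -2.59 ± 0.49 (FDR 8.8e-05) and -2.37 ± 0.46 (FDR 0.000122).

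*GPX3*, the secreted peroxidase, and *GPX7*, another of the endoplasmic reticulum, did not pass in either comparison. Group means of *GPX3* were 38.8 ± 10.4, 44.9 ± 10.02 and 43.2 ± 8.05 CPM (SD, n = 4, 5 and 5) in GV, MII and ‘damaged’ oocytes. By TPM, *GPX4* held 19.0 to 29.8% of the glutathione peroxidase level in GV libraries and 1.4 to 3.0% in MII libraries. *GPX8* held 24.5 to 29.2% in GV and 39.7 to 57.4% in MII libraries, and *GPX1* 6.7 to 17.6% and 19.9 to 31.0%.

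**Figure D3:**
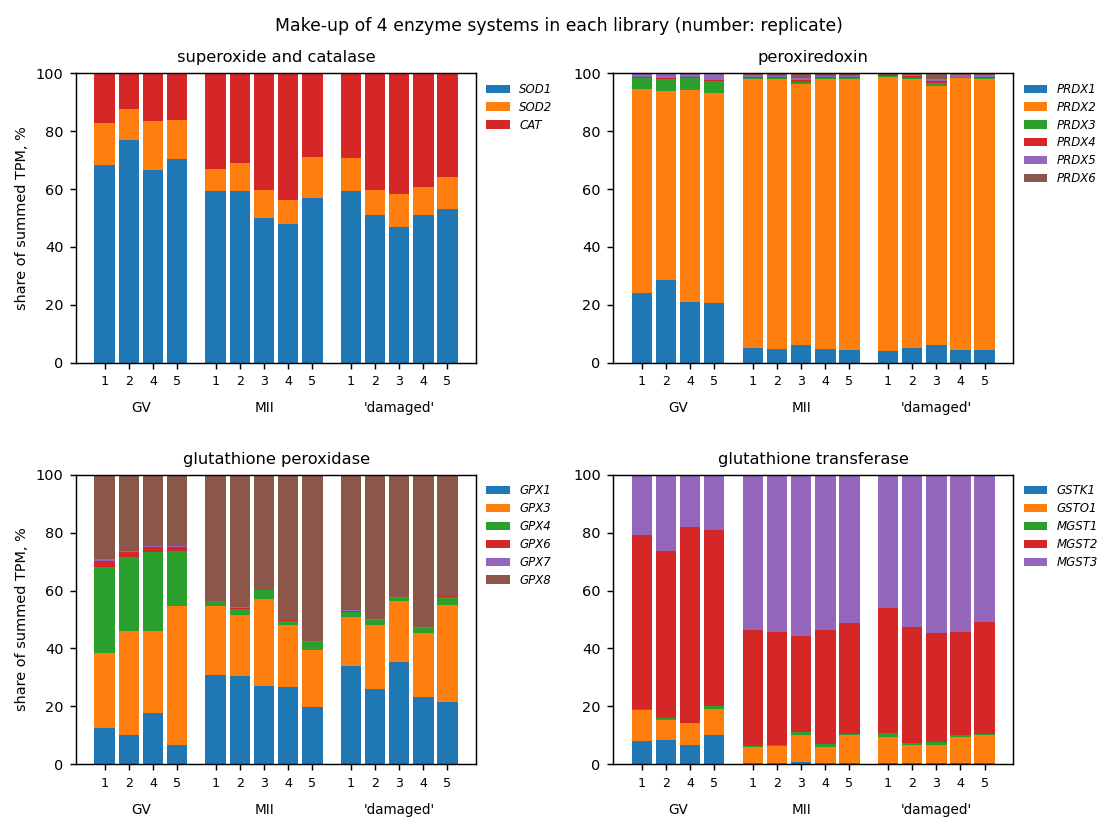
Share of the summed TPM (y axis, %) held by each gene of 4 systems in each of 14 libraries (x axis, replicate number within GV, MII and ‘damaged’), where members under 0.5% in every library are not drawn. *PRDX2* fills at least 89.5% of the peroxiredoxin level after maturation, while *CAT*, *GPX8* and *MGST3* take larger shares of their systems than in GV.

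In glutathione synthesis, no member was a DEG. *GCLC*, the catalytic subunit of the first and limiting step (ENSSSCG00000001488, chr7:27209565-27253535), had 123, 145, 140.2 and 170.2 CPM in GV, 149, 131, 87.6, 105 and 91.1 in MII and 97.1, 93.3, 82.4, 97.7 and 89 in ‘damaged’ libraries. MII libraries overlapped with GV and ‘damaged’ libraries did not. The log2 fold changes were -0.39 ± 0.15 (FDR 0.0312), which did not pass, and -0.65 ± 0.15 (FDR 0.000957), which did, while MII against ‘damaged’ was 0.26 ± 0.15 and did not pass. On library sizes *GCLC* fell in both groups (-1.30 and -1.52).

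*GCLM*, its modifier subunit, had 14.6 ± 2.67 CPM in GV and 16 ± 4.03 in MII oocytes (SD, n = 4 and 5) and did not pass. *GSS*, which completes glutathione, fell, with log2 fold changes of -1.09 ± 0.24 (FDR 0.00047) and -1.31 ± 0.25 (FDR 8.9e-05). *GSR*, the reductase that returns oxidised glutathione to its reduced form (ENSSSCG00000015844, chr15:54382564-54433989), had 183, 201, 178 and 188 CPM in GV, 262, 319, 264, 288 and 215 in MII and 238, 275, 285, 257 and 216 in ‘damaged’ libraries. GV did not overlap with either matured group, and the log2 fold changes were 0.51 ± 0.13 (FDR 0.00146) and 0.43 ± 0.13 (FDR 0.00553). On library sizes *GSR* fell (-0.40 and -0.44), so its direction depended on the scaling.

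Both glutaredoxins that were measured fell. *GLRX3*, which carries iron-sulfur clusters in the cytosol (ENSSSCG00000010759, chr14:139072554-139108063), had 65.1, 45.3, 58.2 and 52.1 CPM in GV, 6.64, 7.25, 5.57, 4.91 and 7.58 in MII and 6.95, 5.05, 6.38, 6.18 and 6.35 in ‘damaged’ libraries. All GV libraries lay far above all others, with log2 fold changes of -3.12 ± 0.17 (FDR 1.1e-11) and -3.14 ± 0.17 (FDR 1.0e-11). *GLRX5*, its mitochondrial relative, ranged from 41.6 to 62.1 CPM in GV and 9.41 to 32 in MII libraries and fell, with log2 fold changes of -1.55 ± 0.23 (FDR 4.5e-06) and -1.28 ± 0.22 (FDR 3.4e-05).

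Of the glutathione transferases, which join glutathione to electrophiles, the membrane-bound *MGST3* (ENSSSCG00000006325, chr4:85069603-85095022) rose the most. It had 21.2, 20.6, 17.9 and 13.2 CPM in GV, 73.3, 77.9, 66.5, 77.5 and 79.7 in MII and 65, 82.1, 77.6, 64.5 and 58.6 in ‘damaged’ libraries. Matured and GV libraries did not overlap. The log2 fold changes were 2.07 ± 0.16 (FDR 7.2e-10) and 1.95 ± 0.16 (FDR 1.7e-09), on either side of the DEG threshold, and 1.15 and 1.07 on library sizes. The difference between MII and ‘damaged’ oocytes was 0.12 ± 0.14.

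*MGST1* (ENSSSCG00000032580, chr5:56259566-56283823) was low, with 0.566, 0.72, 0.133 and 1.11 CPM in GV, 1.3, 1.14, 2.23, 2.62 and 1.022 in MII and 2.71, 2.3, 2.41, 1.4 and 1.21 in ‘damaged’ libraries. GV replicate 5 overlapped with an MII library. The log2 fold changes were 1.59 ± 0.49 (FDR 0.00696) and 1.85 ± 0.48 (FDR 0.0019), and the first no longer passed in 5 of the 14 fits that left out 1 library. On library sizes neither passed (0.70, FDR 0.21, and 1.01, FDR 0.0678). *MGST2* had 48.7 ± 10.8, 48.2 ± 7.09 and 47.6 ± 8.31 CPM (SD, n = 4, 5 and 5), with log2 fold changes of 0.00 and -0.03, although it was lower on library sizes (-0.91 and -0.90).

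*GSTK1*, a transferase of mitochondria and peroxisomes (ENSSSCG00000035615, chr18:6992623-6999068), went the other way. It had 14.4, 12, 12.1 and 12.6 CPM in GV, 1.08, 1.55, 1.55, 0.959 and 0.972 in MII and 1.21, 1.5, 1.028, 1.24 and 1.13 in ‘damaged’ libraries. The gap between stages was wide beside the spread within them, and *GSTK1* fell, with log2 fold changes of -3.40 ± 0.22 (FDR 6.6e-11) and -3.36 ± 0.21 (FDR 7.4e-11). *GSTO1*, of the omega class, had log2 fold changes of 0.43 ± 0.23 (FDR 0.102) and 0.52 ± 0.23 (FDR 0.047) and did not pass. By TPM, *MGST2* held 58.0 to 67.6% and *MGST3* 18.1 to 26.2% of the summed level of the 5 transferases measured here in GV libraries. In MII libraries they held 33.2 to 39.8% and 51.1 to 55.6%. These shares leave out *GSTP1* and also *GSTM3*, which was on a further list of redox genes. *GSTM3* had 699 ± 259 CPM in GV and 176 ± 48.6 in MII oocytes (SD, n = 4 and 5). Its log2 fold change in MII was -1.96 ± 0.26 (FDR 1.2e-06).

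The thioredoxin genes went in both directions. *TXN2*, the mitochondrial thioredoxin that reduces the PRDX3 protein (ENSSSCG00000000144, chr5:11264470-11289388), had 62.2, 38.5, 44.6 and 37.8 CPM in GV, 5.71, 7.93, 10.9, 8.0 and 12.1 in MII and 10.8, 6.58, 9.04, 5.78 and 5.36 in ‘damaged’ libraries. No matured library reached a GV library, and *TXN2* fell, with log2 fold changes of -2.35 ± 0.23 (FDR 1.6e-08) and -2.62 ± 0.23 (FDR 4.6e-09). *TXNRD2*, the mitochondrial reductase, had at most 4.02 counts in a GV library and 0 in every MII and ‘damaged’ library, with the same limits as *SOD3*.

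*TXNRD1*, the cytosolic thioredoxin reductase and a selenoenzyme (ENSSSCG00000000843, chr5:80170334-80213889), had 14.2, 10.9, 16.3 and 11.12 CPM in GV, 31.3, 28.4, 42.5, 28.1 and 29.4 in MII and 22.2, 28.3, 25.1, 36.7 and 43.4 in ‘damaged’ libraries. It rose without overlap, by 1.28 ± 0.21 (FDR 1.4e-05) and 1.23 ± 0.21 (FDR 2.5e-05). On library sizes the values were 0.36 and 0.35 and did not pass. *TXNRD3*, a reductase best known from testis, fell, with log2 fold changes of -1.44 ± 0.24 (FDR 2.2e-05) and -1.56 ± 0.24 (FDR 9.3e-06).

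*NXN*, nucleoredoxin, a thioredoxin-like regulator of Wnt signalling (ENSSSCG00000028720, chr12:46909175-47075435), had the largest fall of all members. It had 12.9, 20.4, 14.2 and 19.4 CPM in GV, 0.375, 0.451, 0.686, 0.315 and 0.246 in MII and 0.527, 0.301, 0, 0.317 and 0.862 in ‘damaged’ libraries. Matured libraries were all under 1 CPM, and 1 ‘damaged’ library had no count. The log2 fold changes were -5.30 ± 0.50 (FDR 1.3e-08) and -5.92 ± 0.55 (FDR 1.1e-08).

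*TXNIP*, the inhibitor of thioredoxin, was chosen after its values were seen. It had 8.88, 9.57, 10.3 and 4.0 CPM in GV, 4.59, 6.68, 3.43, 37.3 and 4.49 in MII and 23.5, 34.4, 11, 13.3 and 9.28 in ‘damaged’ libraries. A single MII library, replicate 4, was at 37.3 CPM while the other 4 were at 3.43 to 6.68 CPM. *TXNIP* did not pass in any comparison, with -0.03 ± 0.54 (FDR 0.967) and 1.07 ± 0.51 (FDR 0.067).

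The methionine sulfoxide reductases, which repair oxidised methionine, were low, all under 10 CPM. *MSRB2*, a mitochondrial member, had 3.86, 3.59, 7.57 and 1.36 CPM in GV, 2.6, 3.98, 3.65, 7.53 and 2.79 in MII and 3.41, 6.82, 6.51, 3.99 and 2.34 in ‘damaged’ libraries. Its groups overlapped, with log2 fold changes of 0.20 ± 0.42 (FDR 0.683) and 0.33 ± 0.42 (FDR 0.49). *MSRB1*, the selenoprotein among them, fell, with log2 fold changes of -1.94 ± 0.32 (FDR 1.9e-05) and -2.12 ± 0.33 (FDR 8.8e-06), while *MSRA* (0.82 and 0.22) and *MSRB3* (0.49 and 0.47) did not pass.

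In the stress response, *NFE2L2*, which codes for the transcription factor NRF2 (ENSSSCG00000015987, chr15:82967485-83146185), had 112, 85.4, 99.9 and 93.9 CPM in GV, 264, 258, 291, 262 and 232 in MII and 278, 259, 333, 294 and 220.5 in ‘damaged’ libraries. It rose without overlap by 1.42 ± 0.13 (FDR 1.3e-08) and 1.50 ± 0.13 (FDR 6.3e-09), and by 0.50 and 0.62 on library sizes. *KEAP1*, whose protein marks NRF2 for degradation, was at 1.19 ± 0.449 CPM in GV, 0.564 ± 0.326 in MII and 0.329 ± 0.12 in ‘damaged’ oocytes (SD, n = 4, 5 and 5). Its log2 fold change was -1.21 ± 0.44 (FDR 0.02) in MII, which did not pass, and -1.73 ± 0.48 (FDR 0.00306) in ‘damaged’ oocytes, which did.

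Classical target genes of NRF2 did not share a direction. *NQO1* had 6.03 to 8.24 counts in the GV libraries, 3.0 to 12.1 in MII and 0 to 10.1 in ‘damaged’ libraries and was not tested. *HMOX1*, the inducible heme oxygenase, had 1.22 ± 0.228 CPM in GV and 1.52 ± 0.413 in MII oocytes (SD, n = 4 and 5) and did not pass, with a log2 fold change of 0.30 ± 0.29 (FDR 0.363). *TXNRD1* and *GSR*, also known targets, rose with TMM factors, *GCLM* did not pass and *SRXN1* fell. *HMOX2*, the constitutive heme oxygenase, fell, with log2 fold changes of -1.46 ± 0.19 (FDR 1.2e-06) and -1.32 ± 0.19 (FDR 3.5e-06).

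The sestrins, stress-induced inhibitors of mTORC1 that also support the reduction of peroxiredoxins, did not move together. *SESN1* (ENSSSCG00000004390, chr1:75056731-75170374) had 40.9, 39.1, 42.1 and 34 CPM in GV, 86.8, 92.8, 92.2, 105 and 105 in MII and 100.3, 99.5, 121, 113 and 91.4 in ‘damaged’ libraries, and rose by 1.31 ± 0.13 (FDR 2.8e-08) and 1.43 ± 0.13 (FDR 7.7e-09). *SESN2* (ENSSSCG00000029438, chr6:85321982-85348044) had 2.7, 3.74, 3.12 and 4.8 CPM in GV, 0.281, 0.225, 0.305, 0.157 and 0.676 in MII and 0.602, 0.225, 0.18, 0.253 and 0.265 in ‘damaged’ libraries, and fell, with log2 fold changes of -3.45 ± 0.39 (FDR 1.4e-07) and -3.52 ± 0.39 (FDR 1.2e-07). Neither overlapped between GV and matured libraries. *SESN3* did not pass, with -0.43 ± 0.25 (FDR 0.133) and -0.39 ± 0.25 (FDR 0.161).

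*NNT*, the mitochondrial transhydrogenase that makes NADPH for glutathione and thioredoxin reduction (ENSSSCG00000016877, chr16:28157192-28248732), had 76.2, 79.4, 88.4 and 73 CPM in GV, 144, 164, 142, 166 and 146 in MII and 123, 162, 144, 167 and 162 in ‘damaged’ libraries. The stages did not overlap on this scale, with log2 fold changes of 0.95 ± 0.13 (FDR 1.4e-06) and 0.93 ± 0.13 (FDR 1.8e-06). On library sizes the values were 0.03 and 0.06 and did not pass.

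By compartment, 8 of 10 listed mitochondrial members were tested. In MII against GV, 5 of them fell at an FDR under 0.01 (*PRDX3*, *PRDX5*, *TXN2*, *GLRX5* and *GSTK1*), 3 of these as DEGs, and only *NNT* rose, while *SOD2* and *MSRB2* did not pass. Their median log2 fold change was -1.73, beside -0.17 for all genes. Of 12 tested members that are mainly cytosolic, 4 rose and 4 fell, with a median of 0.05, and of 5 of the secretory pathway, 1 rose and 1 fell, with a median of -0.23. Over all genes 28.2% rose and 34.2% fell, and the cytosolic members (33.3% and 33.3%) were near these shares. *GPX1*, of cytosol and mitochondria, was counted as cytosolic, and *PRDX5* and *GSTK1*, which are not only mitochondrial, as mitochondrial. Members such as *GPX4*, *GSR* and *CAT* were on none of these lists. The counts and medians depend on this assignment. These lists are short and were chosen with earlier results known, so no difference between them was tested.

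DEGs with lower levels had short transcripts more often. Among all genes, 24.7% of those with an effective length under 2000 bases were DEGs with lower levels in MII, against 10.4% of those over 3686 bases. Of the members, 22 were in the short class, with 7 DEGs lower, 2 higher and a median log2 fold change of 0.10, and 8 in the long class, with 1 lower, 0 higher and a median of -0.93. The part of length in the members' falls was not tested.

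The summed level of all 47 members measured was 5825 ± 289.8 TPM in GV (SD, n = 4), 2812 ± 274 in MII (n = 5) and 2991 ± 425 in ‘damaged’ oocytes (n = 5). The direction depended on the scale, since the summed TMM-scaled CPM was 2979 ± 448 in GV, 3414 ± 258 in MII and 3482 ± 265 in ‘damaged’ oocytes, or 1.15 and 1.17 of the GV mean. *PRDX2* was the member with the highest level in each group, with 2865, 1394 and 1532 TPM. In GV it was followed by *PRDX1* (952 TPM) and *SOD1* (328 TPM), and in MII by *SOD1* (246 TPM) and *CAT* (162 TPM). Among the members *CAT* had rank 10 in GV and *PRDX1* rank 9 in MII oocytes.

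By system, the summed TPM of MII oocytes was 0.082 of the GV mean for the glutaredoxins, 0.29 for the thioredoxin genes, 0.37 for the peroxiredoxins and 0.52 for the methionine sulfoxide reductases. It was 0.98 for the superoxide dismutases with catalase and 1.05 for the NRF2 and stress response genes. TPM counts transcripts as a share of each library's whole. Summing TMM-scaled CPM instead gave higher ratios, of 0.24, 0.61, 0.69, 0.95, 2.05 and 2.22 in the same order. The sums leave out *GLRX* and *GLRX2* among the glutaredoxins and *TXN* among the thioredoxin genes. *TXN2* alone held 60.2 to 72.5% of the thioredoxin sum by TPM in GV libraries. The ratios of these 2 systems therefore cover the measured members only.

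MII and ‘damaged’ oocytes differ by the polar body. No member passed an FDR of 0.01, and none of all 13219 genes did (0%), in limma, edgeR's quasi-likelihood test or DESeq2. Where libraries had been exchanged between these 2 groups, a difference would be masked. With only the 8 libraries whose names agree in both kinds of file, GV libraries included, 0 members passed as well. That fit held fewer MII and ‘damaged’ libraries, so it cannot tell whether a difference was masked. At an unadjusted p under 0.05 there were 2 of 44 members, *TXNIP* and *MSRA*, against 1.48% of all genes. The log2 difference (MII minus ‘damaged’) was -1.09 ± 0.50 (FDR 1.00) for *TXNIP* and 0.60 ± 0.29 (FDR 1.00) for *MSRA*. No member had MII libraries that all lay on one side of the ‘damaged’ libraries, beside 0.272% of all genes.

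The precision behind this differed by gene. For 35 of the 44 members, the interval of 2 SE around the MII to ‘damaged’ difference lay within 1 on the log2 scale, and for 15 within 0.5. *CAT* differed by -0.12 (-0.53 to 0.30), *PRDX3* by 0.06 (-0.33 to 0.44) and *NFE2L2* by -0.07 (-0.32 to 0.17). The 9 members with wider intervals were *TXNIP*, *SRXN1*, *GPX6*, *GPX7*, *MGST1*, *NXN*, *MSRA*, *KEAP1* and *SESN2*, of which only *TXNIP* exceeded 3 CPM on average in a matured group.

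Differential transcript usage, a change in the fraction that each transcript holds of its gene's level, was tested by the DEXSeq model at an FDR under 0.01 and an absolute change of fraction (dIF) over 0.1. Of 16 members tested between MII and GV, 10 had such a transcript, which is 62.5% beside 57.5% of all 4139 genes tested. The members were *CAT*, *GCLC*, *GSTK1*, *MSRB2*, *NFE2L2*, *NNT*, *PRDX4*, *PRDX5*, *SESN1* and *TXNRD1*.

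The shift was wide in *MSRB2* and *PRDX4*, whose gene level did not pass. In *MSRB2* a transcript of 535 bases held 0.035 of the level in GV and 0.67 in MII oocytes, while one of 1536 bases held the rest. In every GV library the longer transcript held at least 0.86, and in every MII library at most 0.55. In *PRDX4* a transcript of 4644 bases held 0.89 to 0.97 in GV and 0.30 to 0.62 in MII libraries, and a second of 4768 bases took the remainder.

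In *TXNRD1* the transcript of 2049 bases went from 0.68 in GV to 0.98 in MII oocytes, and one of 1389 bases from 0.32 to 0.020. In *SESN1* the transcript of 2793 bases rose from 0.40 to 0.73 and that of 2202 bases fell from 0.53 to 0.16. *CAT* shifted towards its shorter transcript, of 2472 bases, from 0.47 to 0.68. It was called in only 5 of 13 fits that differed in method or libraries, this one included. Apart from this fit and the one with all 5 GV libraries, these fits used diffSplice, another test of usage. The count therefore mixes a change of test with a change of libraries. By TPM both *CAT* transcripts were higher in MII, at 110.5 against 34.4 and 51.7 against 38.2.

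*GCLC* moved from a transcript of 3793 bases (0.90 in GV, 0.66 in MII) to one of 3999 bases (0.10 and 0.34). *PRDX5* moved to a transcript of 1672 bases, with 0.16 in GV and 0.59 in MII oocytes. *NFE2L2* had the smallest shift, of -0.14 in its main transcript of 2381 bases, and in *NNT* a transcript of 1708 bases went from 0.14 to 0.46, but *NFE2L2* was called in only 4 and *NNT* in 6 of the same 13 fits. The fractions of *GSTK1* rest on a gene level of only 1.14 TPM in MII oocytes, where the transcript of 1900 bases went from 0.76 to 0.12.

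**Figure D4:**
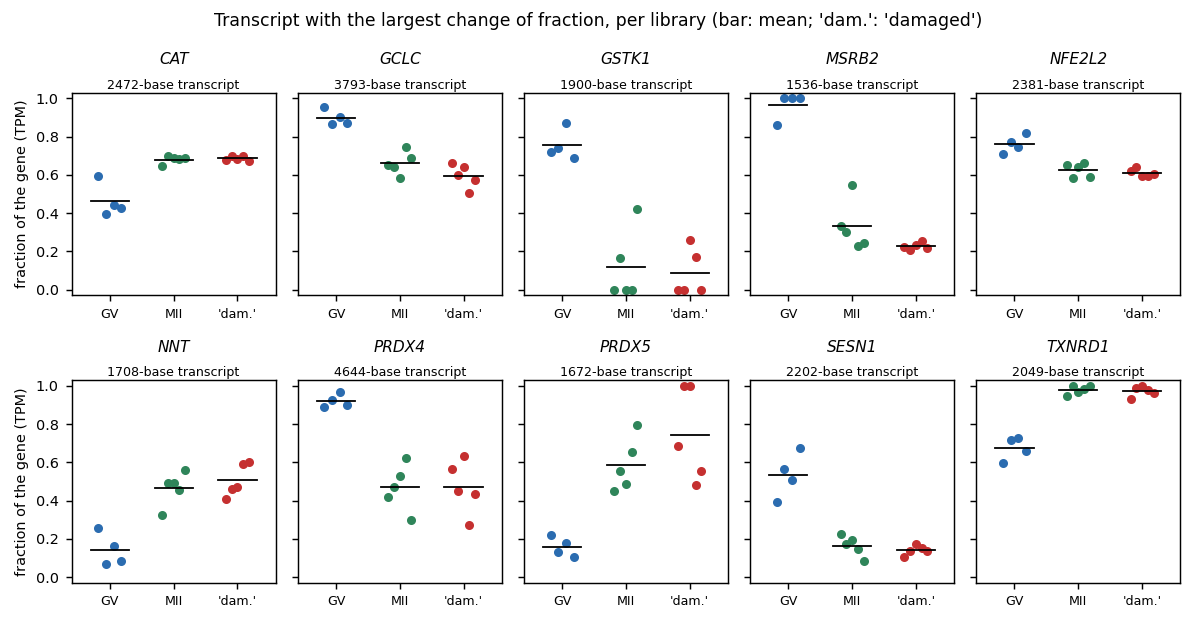
Fraction of the gene's TPM (y axis) held by the transcript with the largest change in 10 genes, in each GV, MII and ‘damaged’ library (points) with group means (bars). In all 10 genes the GV libraries drawn (without replicate 3) do not overlap with the matured libraries, for transcripts that were picked by their called change.

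Between MII and ‘damaged’ oocytes, 6 members passed the same filter and were tested for usage. Of these, 0 were called by the DEXSeq model or by diffSplice, against 0.23% of all genes tested.

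Other redox genes, on a list of 102 of which 75 were tested, had shares near those of all genes except for DEGs with higher levels. In MII against GV, 0 were DEGs with higher and 10 (13.3%) with lower levels, against 4.51% and 17.1% of all genes. At an FDR under 0.01, 23 rose (30.7%) and 29 fell (38.7%), against 28.2% and 34.2%, with a median log2 fold change of -0.06. The largest falls without overlap were *SELENOO*, a mitochondrial selenoprotein, *SELENON*, one of the endoplasmic reticulum, and *IDH2*, which makes NADPH in mitochondria. *IDH2* had 61.4 ± 6.33 CPM in GV (SD, n = 4) and 6.19 ± 1.42 in MII oocytes (n = 5), a log2 fold change of -3.31 ± 0.17. *SELENOO* had 5.33 ± 2.93 CPM in GV and 0 counts in all MII libraries, at least 18.8-fold lower against the highest limit that 3 counts set in an MII library. Of 6 tested genes for selenoprotein synthesis, 4 rose (*SEPHS1*, *SECISBP2*, *SEPSECS* and *TRNAU1AP*) and 1 fell, with a median of 1.31, beside the 28.2% and 34.2% of all genes. On library sizes 2 of these 6 rose and 2 fell, with a median of 0.40. Of 10 other selenoproteins 3 rose and 6 fell, and 1 and 6 on library sizes.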

How the data were processed

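Processed files of 15 pig oocyte RNAseq libraries were used. The kit (SMART-Seq HT) primes cDNA on poly(A) tails, so loss of an mRNA and loss of its tail cannot be told apart. The same holds for a rise of an mRNA and a gain of its tail. The authors made the estimated counts per transcript (46369 transcripts) with Kallisto from the Ensembl cDNA of Sscrofa11.1 after AfterQC trimming, and the submitters' processing notes name kallisto 0.43. The deposited estimated counts are not normalized. The TPM values, scaled by the authors within each library, came from the same files. The authors summed them to estimated counts per gene through tximport (lengthScaledTPM).

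The totals of 8 of the 15 gene table columns equalled those of the transcript file with the same label, and these 8 were used. Another label's total stood in the other 7, which were left aside. Transcripts were placed into genes by matching their TPM to these 8 columns, which placed 13638 of 13649 genes with at least 10 counts in 2 columns, and gene counts of all libraries were recomputed with the same formula. Placing was tested on simulated data, where 100% of 5070 genes got exactly their transcripts. Reads shared by near-identical copies are divided by Kallisto, which was not checked here.

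Groups came from the labels of the transcript files. The tests used limma-voom (limma 3.58.1, R 4.3.3) with TMM factors and the filterByExpr filter from edgeR 4.0.16, in 1 fit of the 3 groups, with the FDR of Benjamini-Hochberg over all genes. A change given with ± has its SE on the log2 scale. The study's text names no normalization factors. Transcript usage was fitted with the DEXSeq model in DESeq2 1.42.0. The usage fits with a replicate block or without 1 library used diffSplice instead. Alternatives were library sizes, edgeR's quasi-likelihood test, DESeq2, other filters, all 5 GV libraries, summed estimated counts, quality weights, a replicate block, MII and ‘damaged’ joined, and leaving out each library. In simulated libraries where 200 genes were given a log2 difference of 3, 193 were recovered for MII against GV, 193 for ‘damaged’ against GV and 190 for MII against ‘damaged’, each of 13219 genes and with 0 false calls. The simulated differences were as often up as down, and every gene had the same dispersion. Smaller differences, and the scaling where falls outnumber rises, were not tested in this way.

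Limits from 3 counts cover counting error only. Between libraries of a group the chi-square per gene was 15.2 to 102 in 26 pairs, where counting error alone gives about 1, so no pair differed by counting error only, and all were counted as separate samples. The members, the lists and the rule for named genes were chosen with earlier results of these data known. Named with every library's value are members that rose in MII, up to 3 DEGs per system, 10 that the study's text names, the 3 highest by TPM in GV and in MII, and those with called usage. RefSeq positions (Sscrofa11.1) were matched by symbol. No sequence is shown.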

Additional observations from a re-analysis of the deposited data

Results flagged for a closer look

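Among 132 groups of libraries (44 members in 3 groups), 11 had a library apart from the others by Dixon's test at 95%, which flags about 1 in 20 groups by chance. *TXNIP* in MII replicate 4 was at 37.3 CPM, beside 3.43 to 6.68 in the other MII libraries. In the same library *MSRB2* was at 7.53 CPM, beside 2.6 to 3.98. *GPX8* was at 106 CPM in MII replicate 5, beside 71.4 to 79.1, and at 32.1 CPM in GV replicate 1, beside 23.7 to 24.1. In MII replicate 3, *MGST2* was low at 35.9 CPM, beside 49.1 to 54.0, and *TXNRD1* high at 42.5 CPM, beside 28.1 to 31.3. *MSRA* was at 1.82 CPM in GV replicate 2, beside 0.928 to 0.990.

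The other values were under 1 CPM. *SRXN1* was at 0.464 CPM in ‘damaged’ replicate 5, beside 0 to 0.0752. *GPX6* was at 0.680 CPM in ‘damaged’ replicate 1, beside 0.191 to 0.332, and *SESN2* in the same library was at 0.602 CPM, beside 0.180 to 0.265. *SESN2* was at 0.676 CPM in MII replicate 5, beside 0.157 to 0.305.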

How the results depend on the processing

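With library sizes in place of TMM factors, 0 members were DEGs with higher levels in MII and 0 in ‘damaged’ oocytes, and 18 were DEGs with lower levels in MII. The shares of all genes are not given on this scale. On library sizes the log2 fold changes (MII, ‘damaged’) turned to -0.28 and -0.27 for *SOD1*, -0.40 and -0.44 for *GSR* and -0.73 and -0.56 for *MSRB2*, and *PRDX2* went to -0.88 in ‘damaged’ oocytes. A filter of 10 CPM left 0 DEGs with higher levels in both comparisons. DEGs with higher levels in ‘damaged’ oocytes numbered 1 with edgeR's quasi-likelihood test and 1 to 4 when 1 library was left out: without ‘damaged’ replicate 1 or 3 *GPX1* was lost (1 DEG), and without replicate 5 *MGST1* and *MGST3* were gained (4 DEGs). In MII against GV, leaving out 1 library gave 2 to 3 members higher and 9 to 11 lower.

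For genes near 0 the sign moved without a call. *PRDX2* in MII was 0.047 with DESeq2, 0.028 with no filter, 0.27 with all 5 GV libraries and 0.10 with quality weights, and -0.12 to 0.16 without 1 library, above 0 in 4 of 14 fits. In ‘damaged’ oocytes *PRDX2* was -0.31 with a filter of 10 CPM, -0.037 with summed estimated counts, -0.0052 with MII and ‘damaged’ joined and -0.11 with the 8 libraries whose names agree, and -0.15 to 0.27 without 1 library. *PRDX4* in ‘damaged’ oocytes was 0.0018 with DESeq2, 0.12 with all 5 GV libraries and 0.0044 with summed estimated counts, and -0.14 to 0.017 without 1 library. *MSRB2* was -0.75 in MII and -0.84 in ‘damaged’ oocytes with summed estimated counts, and without 1 library it ranged from -0.27 to 0.59 in MII and from -0.14 to 0.72 in ‘damaged’ oocytes.

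The study took oocytes of each group in each of its collections, but the labels do not tie the replicate numbers to collections. Any pairing by collection is left out of the main fit. The replicate numbers were not taken to pair the libraries there, since not every same-numbered pair had a correlation of deviations from the group means over 0.1. Over 13 such pairs it was -0.10 to 0.32 (median 0.072), against -0.28 to 0.27 (median -0.0089) over 52 pairs of different numbers, a weak tendency to deviate together. With the replicate number as a block, 1 member was a DEG with a higher level in ‘damaged’ oocytes, *PRDX2* in MII was 0.20 and *PRDX4* in ‘damaged’ oocytes 0.0028, and of the named genes only *MGST1* in MII no longer passed an FDR of 0.01 (log2 fold change 1.38).

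With only the 8 libraries whose names agree, an alternative chosen after seeing the data, 3 members were DEGs with higher and 7 with lower levels in MII, and 3 and 12 in ‘damaged’ oocytes. No member passed between MII and ‘damaged’ oocytes under any alternative. For usage, *NNT* was called by diffSplice without MII replicate 5 (0 to 1 members). Of the members past an FDR of 0.01, 26 of 28 in MII (not *SRXN1* and *MGST1*) and 27 of 30 in ‘damaged’ oocytes (not *GSR*, *MGST1* and *KEAP1*) passed in every fit without 1 library. In usage between MII and GV, 7 members (*GCLC*, *GSTK1*, *MSRB2*, *PRDX4*, *PRDX5*, *SESN1* and *TXNRD1*) were called in all 13 fits. *CAT* was called in 5, *NFE2L2* in 4 and *NNT* in 6 of them, where every fit without 1 library used diffSplice.

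TMM-scaled CPM was also summed in place of TPM, over the members measured in each system. The MII to GV ratios were 2.05 for superoxide and catalase, 0.69 for peroxiredoxins, 1.72 for glutathione peroxidases and 1.13 for glutathione synthesis. They were 0.24 for glutaredoxins, 1.54 for transferases, 0.61 for thioredoxin and 0.95 for methionine sulfoxide reductases. The ratio was 2.22 for the NRF2 genes, 1.92 for *NNT* and 1.15 for all members measured.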
